A study of Mus musculus with 24 samples.

Results

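The nuclear genes for the subunits of oxidative phosphorylation were followed along the mouse intestine, in mice given calcitriol and in vitamin D-deficient mice. They were chosen by symbol: every gene whose name starts with Nduf, Uqcr, Sdh, Atp5, Cox4, Cox5, Cox6, Cox7 or Cox8 and that reached at least 1 FPKM (fragments scaled to transcript length and library size) in 3 or more libraries of any region. Of 21441 genes in the tables, 92 carried one of these prefixes and 89 reached that level. The 3 left out were Cox6a2, Cox7b2 and Cox8c, isoforms known from muscle or testis. The members passed the filter on low values in number 88 of 89 in the duodenum, where Cox8b missed it, and 89 of 89 in the ileum and in the colon. They comprised 78 structural subunits (36 of complex I, 4 of complex II, 8 of complex III, 15 of complex IV and 15 of complex V), 6 assembly factors, the supercomplex factor Cox7a2l, the Ndufa4 relative Ndufa4l2, and Atp5s, Atp5sl and Cox4nb. The last 3 share a prefix and were not assigned here to a complex or to the assembly factors.

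The libraries were made from poly(A) RNA of 3 parts of the intestine (duodenum, ileum, colon), taken from C57BL6J wild-type mice of both sexes. Treated mice received 3 injections of calcitriol, the hormone form of vitamin D, at a dose of 1 ng per g each, given 48, 24 and 6 h before termination. The controls were vitamin D-deficient mice (minusD), whose columns in the tables are mostly named Vehicle. Values were used for 4 treated and 4 deficient libraries of the duodenum, 4 and 3 of the ileum, and 4 and 4 of the colon. The labels give ages of 10 to 14, without a unit, and list 2 females of 4 treated and 1 of 4 deficient samples in each region, but neither could be tied to single libraries. The labels do not say that replicates are separate animals, so p-values measure the spread between these libraries, which may be technical.

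Oxidative phosphorylation is the final stage of respiration in the inner mitochondrial membrane. Complex I (NADH dehydrogenase) and complex II (succinate dehydrogenase, which is also an enzyme of the citric acid cycle) pass electrons to ubiquinone, complex III passes them on to cytochrome c, and complex IV (cytochrome c oxidase) passes them to oxygen. The protons pumped on the way drive complex V, the ATP synthase. Subunits are encoded in the nucleus and, for all complexes but II, partly in mitochondrial DNA, whose genes were not analysed here. In the intestine, absorptive cells draw on this ATP for the sodium gradient that drives nutrient uptake. Calcitriol acts through the vitamin D receptor, a nuclear receptor of enterocytes.

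Reads summed over the genes whose FPKM steps gave whole reads were 12823408 to 29852762 per duodenal library, 13159164 to 31096404 per ileal library and 12242204 to 24158493 per colonic library. Cyp24a1, the calcitriol-inactivating enzyme and a standard target of the hormone, averaged 346 FPKM ± 236 (SD, n = 4) in treated and 0.114 ± 0.203 (SD, n = 4) in deficient duodenal libraries. Its treated means were 149 ± 263 (SD, n = 4) in the ileum and 189 ± 165 (SD, n = 4) in the colon, against deficient means of at most 0.0650. Library columns follow 2 naming schemes that nearly coincide with treatment. One is serial (treated 1, deficient 1, 2 and 3) and the other uses 4-digit numbers (treated 3xD5711, 3xD5720 and 3xD5734, deficient minusD5718), so values within each scheme are given for the medians over the members and for the members named in a comparison of the arms by their p. The ileum holds no deficient library of the 4-digit scheme. The schemes also differed in depth. Relative to the deepest library of the region, 4-digit libraries had a depth of at most 0.460 (duodenum), 0.461 (ileum) and 0.601 (colon), and serial ones of at least 0.615, 0.593 and 0.870. The part of depth in the results was not tested. Summed stomach markers were 5549 to 10154 FPKM in the duodenal libraries of the 4-digit scheme and 33.6 to 204 FPKM in the serial ones, while Atp4a and Atp4b, markers of the mitochondria-rich parietal cell, stayed at or under 0.153 FPKM in the duodenum. The part of stomach tissue in the results was not tested. In bulk RNA, fewer cells of a type and less RNA per cell cannot be told apart.

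RefSeq windows of 300 bases around the gene start (GRCm38.p6, 250 before and 50 after) were matched for 75 members, 3 of them under a newer symbol. Respiratory genes are known for promoter sites of nuclear respiratory factor 1, of ETS factors such as the GA-binding protein, and of YY1. On either strand, the letters GCATGCGC of the first were in 14.67% of the members' windows, against 3.05% of all 27025 genes with a window and 5.91% of the 8388 of them tested in the duodenum. The ETS letters CCGGAAG were in 25.33%, against 9.93% and 19.54%. The YY1 letters AAGATGGCG were in 10.67%, against 1.64% and 3.59%. In the windows of 66 genes with mitochondrial ribosome symbols the letters of these 3 factors were in 10.61%, 34.85% and 10.61%, in the same order. The letters TCAAGGTCA of the estrogen-related receptor alpha were in 2.67% (Atp5g3 and Sdhd), against 0.47% and 0.33%. The vitamin D receptor's direct repeat with a spacer of 3 bases was in 0 of the 75 windows and in 0.04% of all genes' windows. A match is a run of letters and not a measured site, and no match says only that these letters are not in the window.
Shown here are 120 bases before and 30 after the start for 2 complex II genes, all of whose subunits set the duodenum apart, and for 2 isoforms of one complex IV subunit whose balance differed between regions. Capitals mark matches to the letters named above, and the coordinates are of GRCm38.p6.
Sdhb, chr4:140961151-140961300, plus strand: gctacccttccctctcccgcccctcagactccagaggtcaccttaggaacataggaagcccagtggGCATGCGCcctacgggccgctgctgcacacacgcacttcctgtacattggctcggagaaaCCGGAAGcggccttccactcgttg
Sdhd, chr9:50603820-50603969, minus strand: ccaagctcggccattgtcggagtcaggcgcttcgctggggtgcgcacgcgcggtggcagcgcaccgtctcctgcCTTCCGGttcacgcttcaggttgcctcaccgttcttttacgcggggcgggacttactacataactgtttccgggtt
Cox7a1, chr7:30184051-30184200, plus strand: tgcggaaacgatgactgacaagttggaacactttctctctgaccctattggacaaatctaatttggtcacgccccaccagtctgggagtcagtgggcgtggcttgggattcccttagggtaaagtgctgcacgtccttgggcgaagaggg
Cox7a2, chr9:79759824-79759973, minus strand: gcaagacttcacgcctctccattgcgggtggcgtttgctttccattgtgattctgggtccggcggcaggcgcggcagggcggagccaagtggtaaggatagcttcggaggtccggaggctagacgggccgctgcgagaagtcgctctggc
Sdhb holds a GCATGCGC and a CCGGAAG, Sdhd holds the latter on the other strand (CTTCCGG), and neither Cox7a window holds any of the letters searched. The windows were 62.0% G and C for Sdhb, 62.7% for Sdhd, 64.0% for Cox7a2 and 53.3% for Cox7a1.

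The members were abundant and differed by complex. In the duodenum the subunits' median level was 232 FPKM for complex I, 446 for complex II, 556 for complex III, 937 for complex IV and 959 for complex V. The same order held in the other regions, except that complex IV stood above complex V in the ileum (620.5 against 601 FPKM) and colon (747 against 727). FPKM are per length, so levels of different genes are set side by side here, which rests on the gene lengths used by the submitters. The leading subunits in the duodenum were Ndufa3 of complex I (median 624 FPKM, 499 to 889 over 8 libraries), Sdhb of complex II (569, 480.2 to 791), Uqcrh of complex III (1127, 901 to 1490.3), Cox6a1 of complex IV (1866, 1442 to 3063) and Atp5b, the catalytic beta subunit of complex V (1537, 1422 to 1818). Atp5b also had the smallest spread of all members in the ileum and the colon, with a coefficient of variation of 5.43% and 5.51% across libraries. All members together made up 5.25 to 7.69% of the summed FPKM of each duodenal library, 2.78 to 3.89% of each ileal and 4.88 to 6.82% of each colonic one.

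A few subunits were listed far below their complex. Ndufab1, the acyl carrier protein of complex I, had a median of 7.41 FPKM in the duodenum, 4.92 in the ileum and 6.56 in colonic libraries. Ndufs8, a core iron-sulfur subunit, stood at 22.5, 17.0 and 25.5 FPKM, and Ndufb2, an accessory subunit, at 23.5, 12.5 and 19.3. In NCBIM37 the exonic bases number 6883 for Ndufab1, 963 for Ndufs8 and 5628 for Ndufb2. Which lengths the FPKM were divided by, and how reads were assigned to these symbols, was not tested. Atp5j, coupling factor 6 of the ATP synthase stalk, had a median of 11.6 FPKM in the duodenum and 15.6 in the colon and ranged from 7.74 to 29.3 in the ileum. The other 14 of the 15 complex V subunits were above 100 FPKM in each region. In the duodenum Atp5j was listed at 0.896, 25.2, 18.2 and 15.7 FPKM in treated libraries 1, 3xD5711, 3xD5720 and 3xD5734, and at 32.4, 0, 7.49 and 1.06 in deficient minusD5718, 1, 2 and 3. Every value above 10 FPKM thus came from a 4-digit library. Its gene (chr16:84828111-84835870, minus strand, NCBIM37) shares 397 exonic bases with Gabpa on the other strand, and the sources used here do not give whether counting used the strand, so reads in these shared bases, of 3130 exonic bases of Atp5j, cannot be assigned to one gene. Gabpa, a subunit of the GA-binding protein, varied less, from 10.5 to 15.2 FPKM in the duodenum. Of the 88 members with a single gene model, 15 share exonic bases with another gene.

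**Figure D1:**
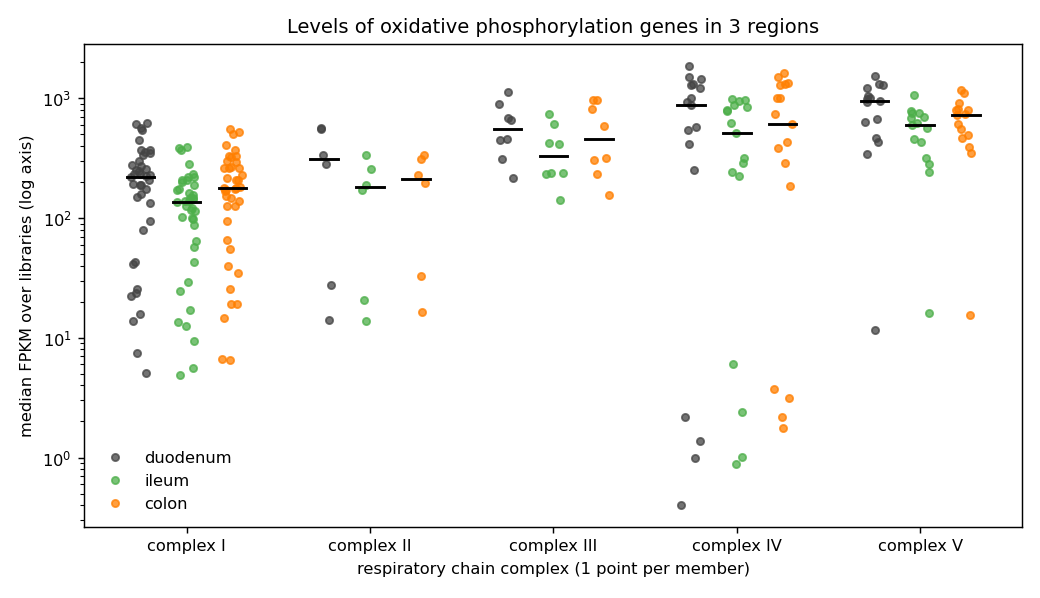
Median FPKM over libraries (log axis) of each member in complexes I to V, by region (dark points, duodenum; green, ileum; orange, colon; bars, median over the members, here with the assembly factors and relatives of each complex, so that they lie below the subunit medians for complexes I, II and IV). Complexes IV and V lie highest, each complex is highest in the duodenum, and a few members lie under 10 FPKM, Ndufab1 and the restricted isoforms of complex IV among them.

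Across regions the members were highest in the duodenum and lowest in the ileum. The tables of the regions were scaled separately, so these levels are set side by side as a description, without a test. In the duodenum 84 of 88 members had a higher mean log2 level than in the ileum, with a median difference of 0.66, against -0.15 over all 11433 genes. Every duodenal library stood above every ileal library for 34 of 88 members, where 4.83% of all genes did so, and for 0 members was the reverse true (all genes 9.53%). Between duodenum and colon the median difference was 0.16 (all genes -0.37). There, 8 members stood fully apart with the duodenum higher (all genes 7.0%) and 1 with the colon higher (27.4%), Ndufaf2, a complex I assembly factor at 25.8 FPKM ± 5.35 (SD, n = 8) in the duodenum and 43.1 ± 9.78 (SD, n = 8) in the colon. The colon in turn stood above the ileum for 84 of 89 members, with a median difference of 0.48 (all genes 0.25) with 21 members fully apart (all genes 15.5%) and 0 the other way (5.03%). The regions also differed in cell make-up. Summed enterocyte markers were 12117 to 19130 FPKM in duodenal, 5819 to 18329 in ileal and 555 to 1324 in colonic libraries. The part of cell make-up in the members' levels was not tested.

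In complex II all 4 of its subunits lay fully apart between the duodenum and both other regions. Sdha, the flavoprotein that oxidises succinate, stood at 279 FPKM ± 26.7 (SD, n = 8) in the duodenum, 168 ± 19.2 (SD, n = 7) in the ileum and 199 ± 16.5 (SD, n = 8) in the colon. Sdhb, the iron-sulfur subunit, stood at 599 ± 111 (SD, n = 8), 334 ± 45.0 (SD, n = 7) and 331 ± 44.5 (SD, n = 8). Its duodenal libraries began at 480.2 FPKM and its ileal and colonic ones ended at 406 and 426. The membrane anchors followed: Sdhc stood at 354, 190.4 and 234 FPKM and Sdhd at 559, 259 and 323 FPKM in the duodenum, ileum and colon. Ileum and colon overlapped for each of the 4 genes.
In complex III, Uqcrc1, a core protein facing the matrix, had 485 FPKM ± 64.6 (SD, n = 8) in the duodenum, 239 ± 20.6 (SD, n = 7) in the ileum and 234 ± 19.1 (SD, n = 8) in the colon. Its duodenal libraries ranged from 401 to 591 FPKM, clear of both other regions. The smallest complex I differences between duodenum and ileum included Ndufb11, an X-linked accessory subunit of the membrane arm, at 44.8 FPKM ± 9.59 (SD, n = 8) against 45.5 ± 16.6 (SD, n = 7). No complex I subunit lay fully apart between duodenum and colon.
The 3 genes for the identical c subunit of the ATP synthase ring shared their output differently by region. Atp5g3 made up 60.6% ± 1.49 (SD, n = 8) of their summed FPKM in the duodenum, 55.6% ± 5.02 (SD, n = 7) in the ileum and 45.8% ± 2.48 (SD, n = 8) in the colon. Atp5g2 made up 16.7% ± 1.61 (SD, n = 8), 23.7% ± 4.17 (SD, n = 7) and 29.7% ± 2.97 (SD, n = 8). The colonic shares of Atp5g3, at most 49.0%, did not reach the lowest duodenal share of 58.4%.

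Cox7a1 showed the largest regional difference between the duodenum and each other region, by the ratio of mean FPKM, of the members past the filter in both. Together with Cox7a2 it encodes alternative forms of a small complex IV subunit, Cox7a1 being known from heart, skeletal muscle and brown fat and Cox7a2 from most tissues. In NCBIM37 Cox7a1 lies at chr7:30969190-30971047 (plus strand) and Cox7a2 at chr9:79603048-79607660 (minus strand), and neither overlaps another gene. Cox7a1 was at 651, 601, 431 and 899 FPKM in treated duodenal libraries 1, 3xD5711, 3xD5720 and 3xD5734, and at 501, 478, 547 and 673 in deficient minusD5718, 1, 2 and 3. The highest ileal library had 289 and the highest colonic library 379 FPKM, so the duodenum lay apart from both. The means were 598 ± 148 (SD, n = 8) in the duodenum, 217 ± 55.7 (SD, n = 7) in the ileum and 204 ± 77.7 (SD, n = 8) in the colon, ratios of 2.76 and 2.92. Cox7a2 stood at 547 ± 105 (SD, n = 8), 315 ± 65.6 (SD, n = 7) and 474 ± 101 (SD, n = 8), with overlap between the regions.
Cox7a1 therefore made up 52.0% ± 4.74 (SD, n = 8) of the pair in the duodenum, 40.5% ± 4.72 (SD, n = 7) in the ileum and 29.6% ± 4.44 (SD, n = 8) in the colon. The duodenal shares began at 42.3% and the colonic shares ended at 35.2%. Treated and deficient libraries had like means: in the duodenum the share was 52.2% ± 6.99 (SD, n = 4) in treated and 51.8% ± 1.82 (SD, n = 4) in deficient libraries.
Markers of muscle and fat did not share one order across the regions. The summed level of 6 smooth muscle genes was 143 to 355 FPKM in duodenal, 681 to 922 in ileal and 740 to 3603 in colonic libraries. Of 6 adipocyte genes 5 had their lowest median in the duodenum, among them Adipoq at 1.57 FPKM, against 25.6 and 15.45 in the ileum and colon. The other, Cidec, a lipid droplet protein, had its highest there, at 41.55 FPKM against 12.85 and 6.21. The sums of the 6 overlapped, at 26.8 to 78.8 FPKM in duodenal, 64.0 to 123 in ileal and 28.8 to 102 in colonic libraries. Of 3 brown fat genes Ucp1, the defining one, did not exceed 0.0463 FPKM in any region, Cidea had medians of 0.427, 0.609 and 0.346 FPKM, and Ppargc1a, which is also expressed elsewhere, had its highest median in the duodenum (15.1 FPKM, against 8.48 and 10.35). Of 4 striated muscle genes Acta1 and Ckm had their lowest median in the duodenum (1.37 and 2.90 FPKM), Tnnt3 had a median of 0 in each region, and the fast-fibre myosin Myh4 was at 0 in 8 of 8 duodenal, 6 of 7 ileal and 8 of 8 colonic libraries. The part of these tissues in the Cox7a1 levels was not tested. Within the colon, the library with the highest smooth muscle sum, treated 1, also had the highest Cox7a1. That library had the highest Cox7a2 too (698 FPKM), and 84 of 89 members above the region's mean.

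**Figure D2:**
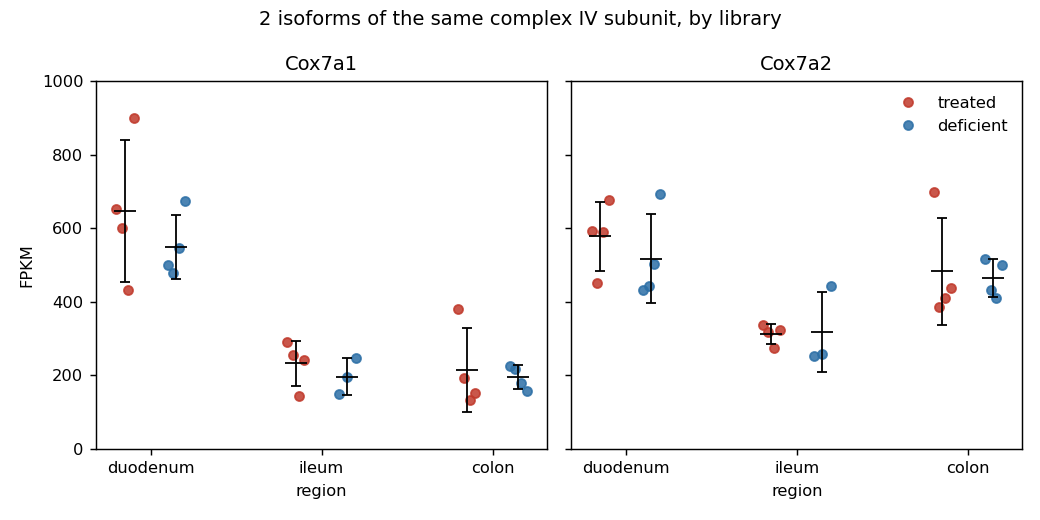
FPKM of Cox7a1 and Cox7a2 in each library (red, treated; blue, deficient; black bars, mean and SD of the arm), by region. Cox7a1 was at 431 to 899 FPKM in the duodenum and at or under 379 elsewhere, while Cox7a2 overlapped between regions.

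The other restricted isoforms of complex IV stayed near the floor. Cox4i2, the lung isoform of subunit 4, made up 0.07% ± 0.03 of its pair with Cox4i1 (SD, n = 8) in the duodenum, from 2 to 26 reads per library. Cox8b, a muscle isoform of subunit 8, had 1 to 8 reads per library there and a median of 0.402 FPKM, against 3.72 FPKM in the colon. Cox6b2, the testis isoform of subunit 6b, made up 0.19% ± 0.08 (SD, n = 8) of its pair with Cox6b1 in the duodenum, 0.74% ± 0.21 (SD, n = 7) in the ileum and 0.31% ± 0.17 (SD, n = 8) in the colon. Ndufa4l2, a hypoxia-inducible relative of the complex IV subunit Ndufa4, stood at or under 3.38 FPKM in every library, and Ndufa4 itself at 1035 FPKM ± 198 (SD, n = 8) in the duodenum. At such low counts differences between single libraries are not resolved.

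Within a region the members moved together from library to library. In each library the median deviation of the members from the region's mean, on the log2(FPKM + 1) scale, was taken over all members that passed the filter. In the duodenum it was 0.00, -0.12, 0.09 and 0.41 in treated 1, 3xD5711, 3xD5720 and 3xD5734, and -0.22, -0.29, -0.12 and 0.21 in deficient minusD5718, 1, 2 and 3. Treated 3xD5734 had 85 of 88 members above the region's mean and deficient 1 had 5, and the arms overlapped. In the ileum it was 0.07, 0.09, -0.15 and 0.03 in the treated libraries, in the same order, and -0.18, -0.10 and 0.35 in deficient 1, 2 and 3. In the colon it was 0.50, -0.16, -0.08 and -0.07 in the treated libraries and 0.08, -0.10, -0.14 and 0.01 in deficient minusD5718, 1, 2 and 3. A single library thus stood highest in the ileum (deficient 3, 83 of 89 members above the mean) and in the colon (treated 1, 84 of 89). The subunits of complexes I, III, IV and V, without assembly factors, deviated by 0.51 to 0.58 in that colonic library, and those of complex II by 0.26.
Other genes deviated in the same libraries. For genes at or above 100 FPKM that are no members, the shorter ones (below the median length of the members) deviated by 0.61 in treated 1 of the colon, 0.38 in deficient 3 of the ileum and 0.38 in treated 3xD5734 of the duodenum, and the longer ones by 0.21, 0.13 and 0.20. Among the members themselves the shorter deviated by 0.60, 0.46 and 0.47 and the longer by 0.36, 0.21 and 0.34. The 88 genes with symbols in Rpl or Rps, mostly of the cytosolic ribosome, deviated by 0.67, 0.28 and 0.36. The part of gene length or RNA quality in these deviations was not tested.

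**Figure D3:**
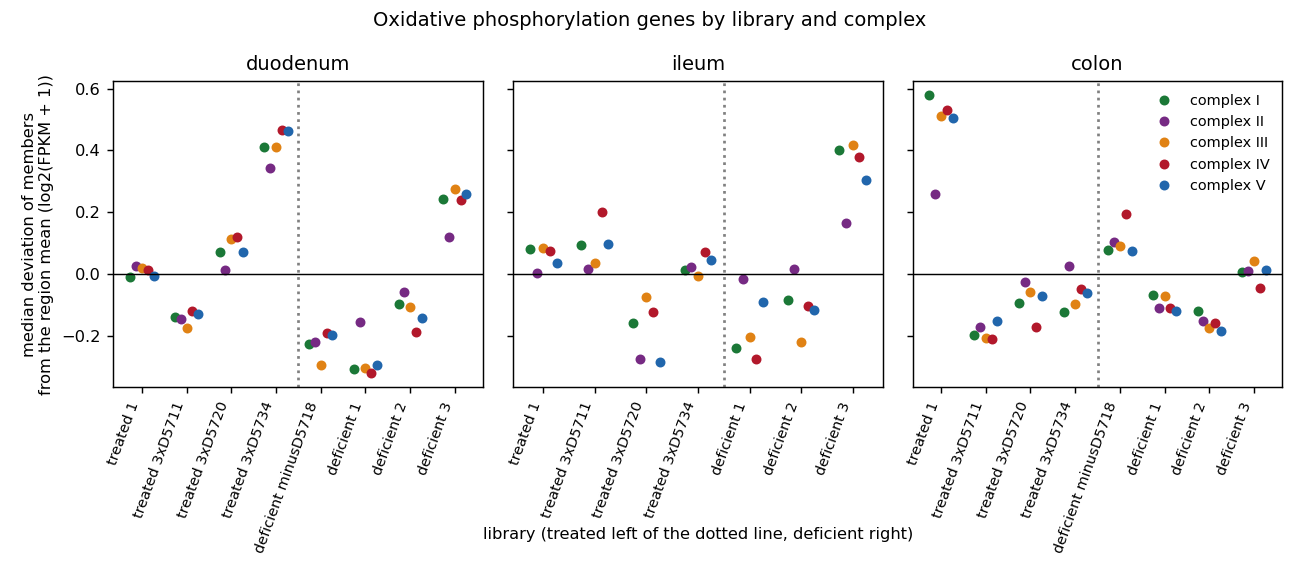
Median deviation of the subunits of each complex from the region's mean in log2(FPKM + 1), by library (colours, complexes, without assembly factors; treated libraries left of the dotted line, deficient right). The complexes move together, with treated 1 of the colon, treated 3xD5734 of the duodenum and deficient 3 of the ileum highest, and complex II is the least displaced in these 3 libraries.

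In the duodenum no member passed the threshold between treated and deficient libraries, in limma with Benjamini-Hochberg adjustment at 0.05 over all genes tested. Of all 11734 genes 0.0256% passed. The members' differences leaned one way: 82 of 88 were above 0, against 51.9% of all genes, and their median was 0.18 on the log2 scale, against 0.01. The lean was not particular to them. Above 0 were 18 of 19 genes of the mitochondrial ribosome (median 0.19) and 13 of 13 mitochondrial carriers, porins and import genes (0.17). So were 12 of 17 enzymes of the citric acid cycle (0.17) and 6 of 12 regulators of mitochondrial biogenesis (-0.01). Medians over the subunits were 0.17 in complex I (34 of 36 above 0), 0.13 in complex II (3 of 4), 0.16 in complex III (8 of 8), 0.22 in complex IV (14 of 14) and 0.23 in complex V (15 of 15). Among serial libraries alone 23 of 36, 2 of 4, 6 of 8, 10 of 14 and 12 of 15 were above 0, in the same order. Among 4-digit ones 34 of 36, 4 of 4, 8 of 8, 14 of 14 and 14 of 15 were. The median over all members was 0.06 among serial and 0.36 among 4-digit libraries. It was 0.09 without treated 3xD5734, 0.31 without deficient 3 and 0.05 after quantile normalization, so that it depended on these libraries and on the scaling. Treated minus deficient medians were 0.23 over shorter and 0.15 over longer members, 0.30 and 0.09 over other genes at or above 100 FPKM, and 0.38 over Rpl and Rps genes. Markers of lymphocytes differed the other way when the schemes were pooled: 0 of 6 were above 0, with a median of -0.85. Among serial libraries 4 of 6 were above 0 (median 0.12), and among 4-digit ones 0 of 6 (median -1.03). The sums of these markers were 11.8 to 61.3 FPKM in treated and 47.4 to 81.8 in deficient duodenal libraries. Adipocyte sums were 48.9 to 78.8 FPKM in treated and 26.8 to 58.2 in deficient ones. In these sums Cidec alone was at 23.2 to 67.3 FPKM and Adipoq at most at 5.31. The median over the 3 adipocyte genes tested was 0.38, but -0.36 among serial and 0.93 among 4-digit libraries. Of 6 smooth muscle genes 5 were above 0 (median 0.19), and 6 of 6 were among serial (0.51) and among 4-digit libraries (0.68). Of 6 enterocyte genes 3 were above 0 (median -0.01), with 4 of 6 among serial (0.07) and 1 of 6 among 4-digit ones (-0.28). Exocrine pancreas sums were 552 to 21520.5 FPKM in treated and 4372 to 28318 in deficient ones, each lowest in treated 3xD5734 and deficient 3. Deficient 1, where the members deviated most downward, had 4807. The part of length or of these cell types in the lean was not tested. At an unadjusted p under 0.05 stood 4 of 88 members, where 9.4% of all genes did: Cox6b2, Atp5s and Ndufaf4 with treated higher (4.03%) and Atp5sl with treated lower (5.37%). Without deficient 3 the number was 19.
Cox6b2 (chr7:4703396-4704696, minus strand) was at 2.45, 3.68, 2.75 and 5.65 FPKM in treated 1, 3xD5711, 3xD5720 and 3xD5734, and at 0.885, 1.95, 1.44 and 1.51 in deficient minusD5718, 1, 2 and 3. Every treated library lay above every deficient one. Its difference was 0.89 ± 0.22 (SE), with an adjusted p of 0.483 in limma. Serial libraries alone gave 0.39 and 4-digit libraries alone 1.37. Its general isoform Cox6b1 differed by 0.26 ± 0.22 (SE).
Atp5s, named Dmac2l in RefSeq, is not counted here among the ATP synthase subunits. It was at 3.46, 3.57, 3.63 and 4.58 FPKM in the treated and 1.96, 2.17, 3.22 and 2.13 in the deficient libraries, in the same order. The groups did not overlap, and the difference was 0.52 ± 0.14 (SE; adjusted p = 0.499, limma), with 0.36 among serial and 0.73 among 4-digit libraries. Groups without overlap were found for 2 of 88 members (all genes 4.37%), both with treated higher (1.99%) and 0 with treated lower (2.38%). Ndufaf4, a complex I assembly factor, had a difference of 0.31 ± 0.11 (SE) and overlapping groups (0.14 serial, 0.43 4-digit). Atp5sl, named Dmac2 in RefSeq, had one of -0.48 ± 0.18 (SE), with -0.54 and -0.38 within these schemes. On the lower side Ndufaf1 followed, at -0.23 ± 0.21 (SE). Its difference was -0.30 among serial and 0.14 among 4-digit libraries, and -0.09 without treated 3xD5734. Sdha was next, at -0.10 ± 0.12 (SE), with -0.06 and 0.09 within the schemes.
In complex I the core subunits, among them those with the redox centres, had a median difference of 0.22 (7 of 7 above 0) and the accessory ones of 0.17 (27 of 29). Among serial libraries alone these were -0.01 (3 of 7) and 0.06 (20 of 29), and among 4-digit ones 0.41 (7 of 7) and 0.35 (27 of 29). Ndufs1, the largest iron-sulfur subunit of complex I, was at 96.2 FPKM ± 4.80 (SD, n = 4) in treated and 92.1 ± 4.31 (SD, n = 4) in deficient libraries. Sdha was at 269 ± 18.9 (SD, n = 4) and 289 ± 32.2 (SD, n = 4), and Atp5b at 1580.3 ± 168 (SD, n = 4) and 1553 ± 91.2 (SD, n = 4). Uqcrfs1, the Rieske iron-sulfur protein of complex III, differed by 0.23 ± 0.18 (SE). Cox4i1, which is not catalytic but the regulatory subunit 4 of complex IV, differed by 0.21 ± 0.22 (SE). Atp5a1, the alpha subunit of the ATP synthase, was at 971 ± 88.4 (SD, n = 4) and 943 ± 79.8 (SD, n = 4).

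In the ileum no member and no gene of 12149 passed. The members' median difference was -0.01, with 43 of 89 above 0, where 51.7% of all genes were. Subunits of complexes I to V had medians of 0.00, -0.10, 0.09, 0.03 and -0.06. Within the serial libraries, the only scheme with both arms there, the median was 0.05, and without deficient 3 it was 0.17. At an unadjusted p under 0.05 stood 7 of 89 members (all genes 5.84%), 3 with treated higher (3.09%) and 4 with treated lower (2.74%). They were Ndufb11, Atp5s and Ndufb4 on the higher side and Ndufa2, Ndufaf1, Atp5e and Ndufv1 on the lower. Without deficient 3 the number was 27.
Ndufb11 (chrX:20192452-20194745, minus strand) was at 42.8, 67.7, 57.4 and 61.3 FPKM in treated 1, 3xD5711, 3xD5720 and 3xD5734, and at 30.8, 26.7 and 31.8 in deficient 1, 2 and 3. All treated libraries lay above the deficient ones. The difference was 0.91 ± 0.17 (SE), with an adjusted p of 0.706 in limma, and 0.51 within the serial scheme. It shares 117 of its 908 exonic bases with Rbm10, an RNA-binding protein gene on the other strand, which was listed at 0 to 10.3 FPKM in the ileum. In the duodenum Ndufb11 differed by 0.17 ± 0.20 (SE) and in the colon by 0.34 ± 0.15 (SE).
Atp5s was at 1.87, 4.06, 1.45 and 2.93 FPKM in the treated and 0.996, 0.609 and 1.41 in the deficient libraries, again without overlap, from 29 to 93 reads. Its difference was 0.80 ± 0.27 (SE; adjusted p = 0.706, limma), and 0.54 among serial libraries. Its groups were apart with treated higher in both parts of the small intestine, and in the colon they overlapped (0.22 ± 0.21, SE). Its response did not pass as different between regions. The duodenal minus the colonic response was 0.30 ± 0.30 (SE), and the ileal minus the colonic 0.57 ± 0.31 (SE; adjusted p = 0.960, limma).
Ndufb4, an accessory subunit of complex I, was at 177, 248, 164 and 172 FPKM in treated and 87.3, 44.6 and 188 in deficient libraries. Deficient 3 lay inside the treated range, and the difference of 1.04 ± 0.42 (SE) became 0.54 without deficient 2 and 1.57 without deficient 3. It was 0.96 among serial libraries.
Ndufv1, the subunit that binds NADH, had 114, 101, 97.5 and 110 FPKM in treated and 117, 149 and 131 in deficient libraries, all deficient ones higher. The difference was -0.32 ± 0.14 (SE), and -0.20 among serial libraries. Ndufaf1, a complex I assembly factor, also had all treated libraries below the deficient ones, with a difference of -0.62 ± 0.24 (SE), and -0.19 among serial libraries. In all, 2 of 89 members lay apart with treated higher (all genes 3.35%) and 2 with treated lower (3.21%; either way 6.56%). Atp5e, the epsilon subunit of the ATP synthase, and Ndufa2, a small complex I subunit, overlapped between groups, with differences of -0.57 ± 0.23 (SE) and -0.53 ± 0.20 (SE). Among serial libraries these were -0.27 and -0.22.

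**Figure D4:**
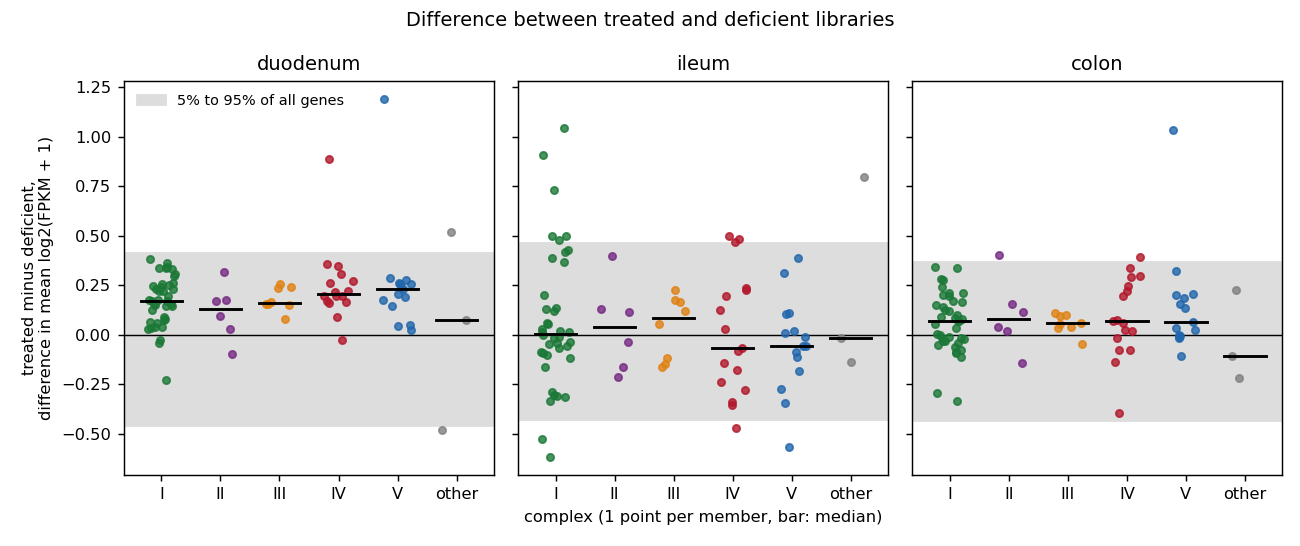
Difference between treated and deficient libraries in mean log2(FPKM + 1) for each member, by complex and region (bars, median of the complex with its assembly factors and relatives; grey band, 5% to 95% of all genes tested; other, members not assigned here to a complex). The band holds most members in each region, the duodenal ones mostly above 0. Atp5j lies above it in the duodenum and colon, but its duodenal difference was below 0 within each naming scheme. Cox6b2 and Atp5s in the duodenum and Ndufb11 in the ileum, among others, also lie above the band. Atp5sl in the duodenum and Atp5e, Ndufa2 and Ndufaf1 in the ileum, among others, lie below it.

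In the colon no member and no gene of 12746 passed. The members' median difference was 0.06, with 60 of 89 above 0 (all genes 47.3%), and medians over the subunits of each complex lay between 0.06 and 0.07. The schemes disagreed. The median was 0.63 among the serial libraries, where treated 1 is the only treated library, and -0.18 among the 4-digit libraries, where deficient minusD5718 is the only deficient one. Without treated 1 it was -0.07, without any single other library it was 0.03 to 0.14, and after quantile normalization -0.06. At an unadjusted p under 0.05 stood 4 of 89 members (all genes 5.85%), Atp5j, Sdhaf1, Atp5c1 and Ndufv2, all with treated higher (2.92%; treated lower 2.93%). Without treated 1 the number was 18.
Atp5j was at 17.7, 35.6, 26.7 and 23.1 FPKM in treated 1, 3xD5711, 3xD5720 and 3xD5734, and at 13.5, 10.3, 13.3 and 10.0 in deficient minusD5718, 1, 2 and 3. No deficient library reached the lowest treated one. The difference was 1.03 ± 0.21 (SE; adjusted p = 0.456, limma), from 147 to 359 reads, and 0.62 and 1.00 within the serial and 4-digit schemes. Gabpa, which overlaps it, differed by 0.01 ± 0.20 (SE). The duodenum, with its listed 0 and values up to 32.4 FPKM, gave Atp5j a pooled difference of 1.19 ± 1.16 (SE), but -0.45 and -0.72 within the schemes.
Sdhaf1, which helps insert iron-sulfur clusters into Sdhb, was at 45.3, 40.5, 38.7 and 33.4 FPKM in the treated and 29.4, 28.9, 27.5 and 32.1 in the deficient libraries, in the same order. The groups did not overlap. The difference was 0.40 ± 0.12 (SE; adjusted p = 0.742, limma), 0.61 among serial and 0.34 among 4-digit libraries. In the duodenum it was 0.32 ± 0.17 (SE) and in the ileum 0.40 ± 0.20 (SE), in both with overlap. Its annotated gene (chr7:31106430-31107394, minus strand) shares 636 of 965 exonic bases with a gene on the other strand, E130208F15Rik.
In all, 2 of 89 members lay apart with treated higher in the colon, where 2.22% of all genes did, and 0 with treated lower (2.32%; either way 4.54%). Atp5c1, the gamma subunit that turns in the ATP synthase head, differed by 0.32 ± 0.13 (SE), with overlap, but by 0.51 among serial and 0.00 among 4-digit libraries. Ndufv2, a core iron-sulfur subunit, differed by 0.34 ± 0.14 (SE), with overlap, and by 0.65 and 0.07 within the schemes. On the lower side the smallest p belonged to Ndufs8, at -0.34 ± 0.17 (SE), with -0.06 and -0.25 within the schemes. Sdha followed at -0.14 ± 0.10 (SE), with -0.10 and -0.24. Ndufa5, an accessory subunit of complex I, was at -0.29 ± 0.26 (SE). It changed sign in 2 of 21 alternatives, with values from -0.56 without treated 1 to 0.47 among serial libraries.

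**Figure D5:**
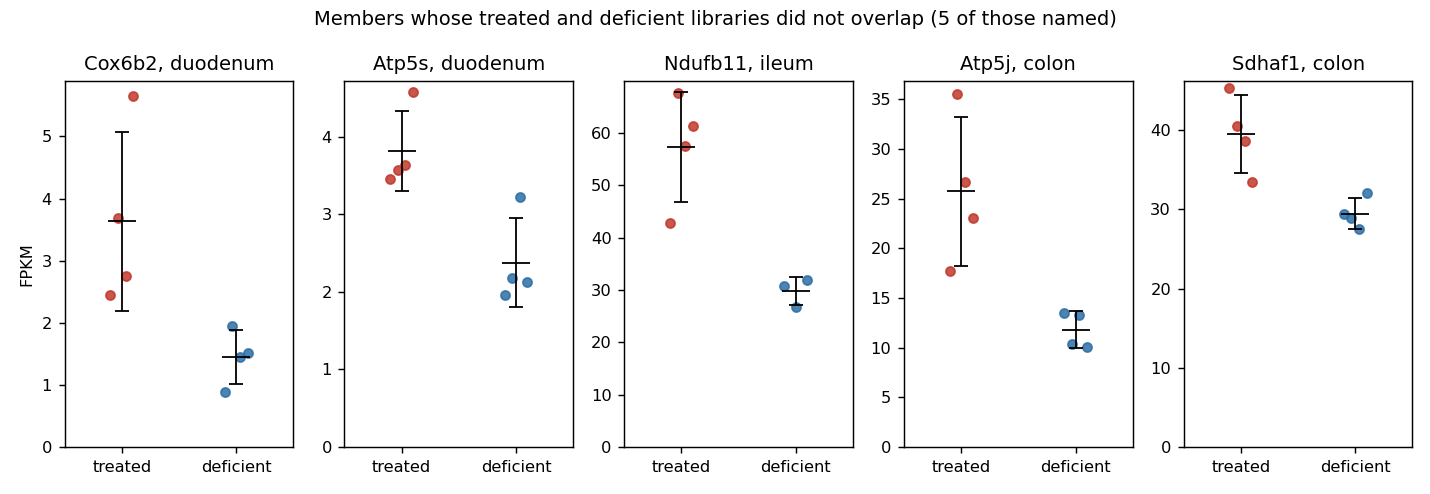
FPKM by library of 5 of the members whose treated (red) and deficient (blue) libraries did not overlap, each in the region named (linear axes from 0; black bars, mean and SD). All 5 had treated higher. Not shown are Ndufv1 and Ndufaf1 of the ileum, which lay apart with treated lower, and Atp5s of the ileum, with treated higher. Cox6b2 and Atp5s stay under 6 FPKM, and the gap between the groups is under 2 FPKM for Cox6b2, Atp5s and Sdhaf1.

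No member passed in the test of whether its response differed between regions, a limma fit of all 23 libraries adjusted over all genes past the filter in both regions. Between duodenum and ileum 0 of 88 members passed, with 3 at an unadjusted p under 0.05, where 4.64% of genes stood. Ndufb11 had the smallest p, with a difference between the responses of -0.73 ± 0.26 (SE; adjusted p = 0.828, limma), followed by Cox6b2 at 1.13 ± 0.48 (SE). Between duodenum and colon 0 of 88 passed and 1 stood at an unadjusted p under 0.05 (1.6% of genes), Cox6b2 at 1.29 ± 0.47 (SE). Between ileum and colon 0 of 89 passed and 2 stood there (3.27% of genes), Ndufaf1 and Ndufb11. The comparisons share libraries of a region.

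Genes around the respiratory chain also gave no call. Of 9 electron carriers 0 passed in any region, and cytochrome c (Cycs) differed by 0.16 ± 0.16 (SE) in the duodenum, 0.29 ± 0.31 (SE) in the ileum and 0.05 ± 0.17 (SE) in the colon. Of 22 assembly factors outside the prefixes 0 passed. The smallest p among them in the duodenum belonged to Cox15, which makes the heme a of complex IV, at 29.0 FPKM ± 2.61 (SD, n = 4) in treated and 20.8 ± 1.85 (SD, n = 4) in deficient libraries. That difference was 0.46 ± 0.11 (SE; adjusted p = 0.479, limma), and it was 0.29 ± 0.12 (SE) in the ileum and -0.07 ± 0.17 (SE) in the colon. Of 12 tested regulators of mitochondrial biogenesis 0 passed. Ppargc1a, the coactivator PGC-1alpha, differed by -0.34 ± 0.15 (SE) in the duodenum, and Esrra, an orphan nuclear receptor it works with, by -0.59 ± 0.27 (SE) in the ileum. Nrf1 and Tfam, the latter a mitochondrial transcription factor, differed by 0.03 ± 0.11 (SE) and 0.20 ± 0.10 (SE) in the duodenum. The median over the 12 regulators was -0.01, -0.03 and -0.12 in the duodenum, ileum and colon.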

How the data were processed

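Poly(A) RNA of 3 intestinal regions was sequenced, and CLC Genomics Workbench did the mapping, per the labels' protocols. The submitters' processing notes also name kallisto 0.45.0, DESeq 1.14.0, DESeq2 and mm9, without roles. The authors deposited FPKM by gene symbol, with a column for each library and a separate table for each region. The 8-library ileum table equals the duodenum table in 171528 of 171528 values, so the 7-library ileum table was used, with 4 treated against 3 deficient libraries, a departure from the planned 4 against 4. Columns named Vehicle were taken as the deficient group.

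Reads were recovered from the steps of the FPKM values (tolerance 0.0001) for 82.8% of the genes examined in each region, and for 82, 83 and 82 members in the duodenum, ileum and colon. Genes whose step implied a length over 20 times the median were left out of this (158, 130 and 110), a limit chosen after seeing the data. Relative depth is the reads per FPKM, and summed reads departed from it by up to 1.16-fold. The steps also give a relative gene length. Within a region, a gene entered the test when 3 or more libraries reached 1 FPKM. Values were taken as log2(FPKM + 1), a scale that understates changes of low genes and tested two-sided with limma 3.58.1 (R 4.3.3; trended eBayes after lmFit), Benjamini-Hochberg over all genes, threshold 0.05. The code was tested on simulated data. The members and gene lists were chosen with earlier results of these data known. Named genes are, per region, the 3 with the smallest p on each side, the most abundant and the catalytic subunits of each complex, isoform pairs, and members listed at 0. Positions are from gencode vM1 on NCBIM37, the assembly of mm9.

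Libraries of the same number in the duodenum and ileum deviated together in 7 of 7 pairs (correlations over 0.1, lowest 0.11, median 0.28), and a fit with that number as a block was run for the difference of responses. Other alternatives were pseudocounts 0.1 and 0.5, other filters, quantile and median-ratio scaling, the naming scheme as a covariate, each library left out, the 7-library tables and, chosen after seeing the data, voom on recovered reads and the omission of library pairs.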

Additional observations from a re-analysis of the deposited data

Results flagged for a closer look

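A library was marked where it lay far from the other 3 of its arm relative to the arm's range, which chance gives in about 1 of 20 groups. Of 185 groups examined, 22 were marked. In the colon treated 1 was the high library for Atp5e (1689 FPKM, the others at most 798), Cox6a1 (2634, at most 1448), Cox7a2 (698, at most 438), Cox8a (2026, at most 1414), Cox8b (9.69, at most 4.01), Ndufa2 (476, at most 232), Ndufa3 (833, at most 522), Ndufa5 (268, at most 140.2) and Cox6a2 (0.532, at most 0.140). In the same library the median deviation of all members was 0.50, against -0.16 to -0.07 in the other treated libraries. Treated 3xD5720 of the colon had the lowest Cox4i2, at 0.633 FPKM, with the others at 2.21 to 2.34.

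Among deficient colonic libraries minusD5718 was highest for Cox6b1 (1169 FPKM) and Ndufb4 (320 FPKM), and deficient 3 was highest for Ndufa2 (303 FPKM) and Ndufa5 (235 FPKM). In the duodenum deficient 3 was the high library for Cox5a (1046 FPKM, the others at most 740.3), Ndufaf4 (14.3, at most 11.4) and Uqcrfs1 (530 FPKM, at most 406). Atp5s was high in treated 3xD5734 (4.58 FPKM) and in deficient 2 (3.22 FPKM) of the duodenum. In the ileum Ndufa4 was low in treated 1 (706 FPKM, the others 803 to 806) and Ndufb4 high in treated 3xD5711 (248 FPKM, at most 177).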

How the results depend on the processing

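No alternative gave a member past the threshold, in any region or difference of responses. The counts were 0 under pseudocounts of 0.1 and 0.5, other filters, both rescalings, the naming scheme as a covariate and each library left out. Robust eBayes, the 7-library tables and voom on recovered reads also gave 0 within regions, and were not run for the difference of responses. At an unadjusted p under 0.05 the duodenum had 2 to 19 members, the ileum 2 to 27 and the colon 2 to 18. The median difference of the colon moved to 0.63 when only serial libraries were used and to -0.18 with only 4-digit ones. With each library left out the duodenal median ran from 0.09 to 0.31, the ileal one from -0.12 to 0.17 and the colonic one from -0.07 to 0.14. Omitting both treated 3xD5734 and deficient 3 gave 0.19 in the duodenum, and omitting both treated 3xD5720 and deficient 3 gave 0.18 in the ileum, pairs chosen after seeing the data. Structural subunits alone gave 0.19, -0.01 and 0.06.

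No paired analysis was possible because the columns carry no number that ties a treated to a deficient library within a region. With the number shared between regions as a block, 0 members differed in response in each of the 3 pairs of regions. For the duodenum and colon 7 of 8 same-numbered pairs correlated over 0.1 (lowest -0.07), and 6 of 7 between ileum and colon (lowest 0.03). With 4 libraries an arm at most, a difference the size of the spread between libraries was not resolved, and some members under 10 FPKM, such as Cox8b and Cox4i2, rest on few reads.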

Other observations

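Mitochondrial genes outside the respiratory chain followed the members' regional order in part. The 17 enzymes of the citric acid cycle had a median difference of 0.56 between duodenum and ileum and of 0.45 between colon and ileum, against -0.15 and 0.25 over all genes. The 19 genes of the mitochondrial ribosome had 0.14 and 0.29 in these comparisons, and the 12 regulators of biogenesis -0.10 and 0.22. Between treated and deficient libraries none of these genes passed. In the citric acid cycle Ogdh, a subunit of the oxoglutarate dehydrogenase, was at 10.6 FPKM ± 5.69 (SD, n = 4) in treated and 3.32 ± 2.35 (SD, n = 4) in deficient libraries of the duodenum. In the ileum it was at 9.82 ± 2.39 (SD, n = 4) and 3.93 ± 2.08 (SD, n = 3), with differences of 1.46 ± 0.48 (SE) and 1.19 ± 0.29 (SE), and in the colon it differed by -0.14 ± 0.35 (SE). Usmg5, a small ATP synthase component whose symbol lies outside the prefixes, differed by 0.42 ± 0.23 (SE), 0.44 ± 0.24 (SE) and 0.44 ± 0.18 (SE) in the duodenum, ileum and colon. Mrps35 of the mitochondrial ribosome differed by 0.40 ± 0.10 (SE), 0.22 ± 0.15 (SE) and 0.33 ± 0.11 (SE) in the same order, with adjusted p of 0.483, 0.706 and 0.846 in limma.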
